A study of Mus musculus with 18 samples.

Results

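The genes described here encode 6 matrix metalloproteinases (Mmp8, Mmp9, Mmp12, Mmp13, Mmp14 and Mmp19) and 2 of their inhibitors (Timp1 and Timp2). They were taken by symbol from a table of expression values for 11164 genes, and 8 of 8 were in it and passed the filter on low values that left 9934 genes for testing. RNA had been sequenced from macrophages that were grown out of the bone marrow of C57BL/6J mice. The mice were wild type (WT), or lacked BAFF (BAFF KO) or APRIL (APRIL KO), 2 cytokines of the tumour necrosis factor family, and the series is about inflammation that sets off preterm birth. Cells of each genotype were either unstimulated or given lipopolysaccharide (LPS), a bacterial cell wall component, at 10 ng/ml for 4 h. The labels hold day 16 of gestation as a further entry for all groups. They give neither the age of the mice nor how the knockout alleles were made. Without LPS there was 1 library per genotype, numbered 13 in WT, 16 in BAFF KO and 19 in APRIL KO. With LPS there were 2, numbered 14 and 15, 17 and 18, and 20 and 21 in the same order.

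Matrix metalloproteinases are zinc enzymes that cut collagens, elastin and other proteins of the extracellular matrix, and that also process cytokines and chemokines. Most are secreted as inactive proenzymes and become active when other proteases, such as plasmin, remove the propeptide. TIMP proteins bind the active enzymes and block them, and TIMP2 also takes part in the activation of proMMP2 by MMP14 at the cell surface. Macrophages are a main source of several of these enzymes in inflamed tissue.

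Levels are RPKM, the reads of a gene scaled to its length and to the reads of the column, and each library is the mean of its 2 columns. Reads over the listed genes numbered 5121833 to 6020780 per library. The sample titles number the 2 columns of a library as separate replicates, while their descriptions share a number. That a shared number stands for 1 library is an assumption made here. The mean chi-square per gene was 1.58 to 2.13 between the 2 columns of a library and 2.78 to 5.80 between libraries of a group. A library was counted as 1 sample. Whether the 2 LPS libraries of a genotype stem from different mice or cultures is not in the labels. Every p-value here thus reflects only how far libraries spread, and that spread may be technical. All 8 macrophage markers, among them Adgre1, Csf1r and Cd68, were read in every library, with a summed level of 4704 to 7622 RPKM. Tnfsf13, the gene of APRIL, had 0 reads in the 6 APRIL KO columns, 645 in WT and 881 in BAFF KO. The gene of BAFF was not analysed here, which leaves the BAFF KO label without such a check. Markers of other cells varied: summed stromal markers ran from 12.2 RPKM in library 19 to 503 in library 21, and summed skeletal muscle markers from 212 to 315 RPKM in WT libraries against 22.3 to 55.2 in knockout libraries.

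**Figure D1:**
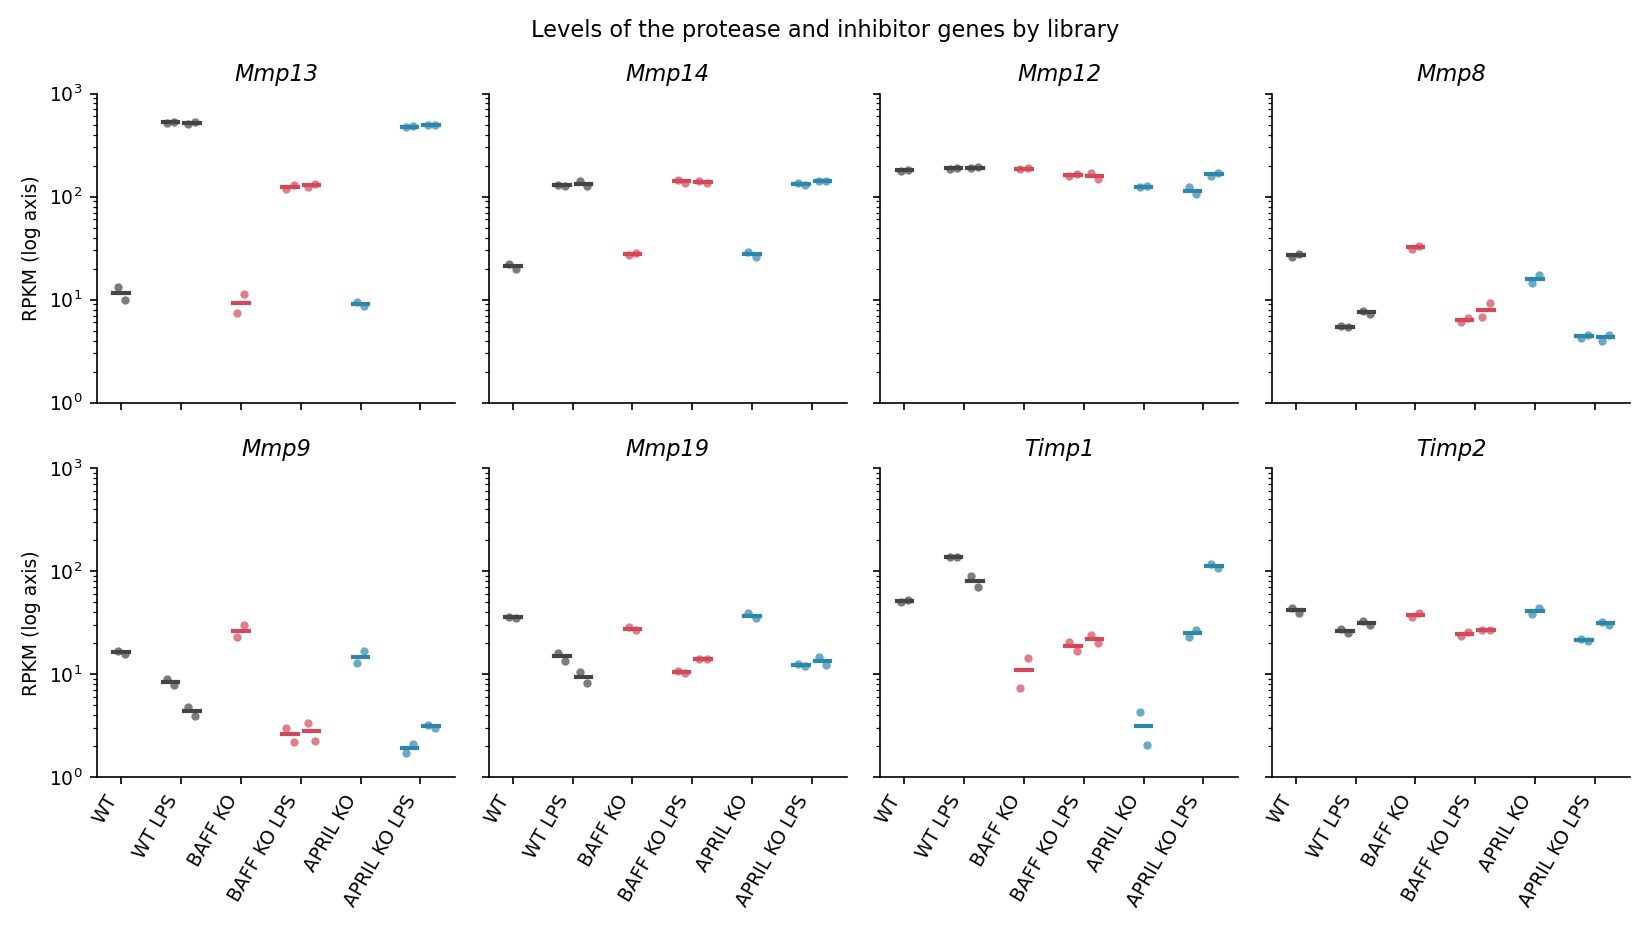
Each panel plots 1 gene, with its RPKM on a log axis shared by all panels and the 6 groups on the horizontal axis. Points are columns and bars are library means (1 unstimulated and 2 LPS libraries per genotype). Mmp13 lies near 10 RPKM without LPS and, with LPS, between 475 and 527 in WT and APRIL KO libraries but at 124 and 128 in BAFF KO libraries.

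LPS raised Mmp13, Mmp14 and Timp1, lowered Mmp8, Mmp9, Mmp19 and Timp2, and left Mmp12 without a called change when the 3 genotypes were averaged. Changes are differences of log2(RPKM + 1) from a limma fit over 9934 genes, called where the Benjamini-Hochberg adjusted p is below 0.05. This scale understates the change of low genes. The counts of 7 members called, 3 higher and 4 lower, stand against 80.2% of all tested genes called, 18.1% higher and 62.1% lower. The median change of the 8 members was -0.28 and that of all tested genes -0.44. With median ratio scaling, which sets libraries by a typical gene and not by the total of reads, the median of all genes moved to -0.01 and the members split into 4 higher and 3 lower. Under that scaling Mmp12 was called higher and Timp2 was no longer called.

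Mmp13, the collagenase that cleaves type II and other fibrillar collagens, had the largest rise of the 8 members. Without LPS it was at 11.5 RPKM in WT, 9.33 in BAFF KO and 9.06 in APRIL KO. With LPS the WT libraries were at 527 and 523 RPKM, the BAFF KO libraries at 124 and 128, and the APRIL KO libraries at 475 and 490. Every LPS library was far above every unstimulated library, and the BAFF KO pair stood apart below the other LPS libraries. In means of RPKM the rise was 45.5-fold in WT, 13.5-fold in BAFF KO and 53.3-fold in APRIL KO. On the log2 scale the changes were 5.39 (SE 0.09, adjusted p = 2.4e-08) in WT, 3.62 (SE 0.09, adjusted p = 1.1e-07) in BAFF KO and 5.59 (SE 0.09, adjusted p = 2.8e-08) in APRIL KO. Averaged over genotypes, the change of 4.87 for Mmp13 was the rise of rank 38 among 9934 tested genes and of rank 9 by p. The gene lies on chromosome 9, 7272514 to 7283331, on the plus strand (mm10, GENCODE M21).

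The stretch of 250 bases before the RefSeq start of Mmp13 is shown because the gene moved most. It is set beside the same stretch of Mmp14, which rose in all genotypes, of Mmp8, which fell, and of Mmp12, which showed no called change. Capitals mark the letters of 3 motifs searched on both strands: TGANTCA, bound by AP-1 factors, AGGAAG, bound by ETS factors, and TGTGGT, bound by RUNX factors. A match on the other strand reads CTTCCT for ETS and ACCACA for RUNX. No 2 marked matches overlap. The sequences are from RefSeq on GRCm38.p6, 5′ to 3′ on the plus strand, and cover chr9:7272264-7272513 for Mmp13, chr14:54431348-54431597 for Mmp14, chr9:7558179-7558428 for Mmp8 and chr9:7347124-7347373 before the second start of Mmp12, which has 2 listed starts (chr9:7344147-7344396 before the first).
Mmp13: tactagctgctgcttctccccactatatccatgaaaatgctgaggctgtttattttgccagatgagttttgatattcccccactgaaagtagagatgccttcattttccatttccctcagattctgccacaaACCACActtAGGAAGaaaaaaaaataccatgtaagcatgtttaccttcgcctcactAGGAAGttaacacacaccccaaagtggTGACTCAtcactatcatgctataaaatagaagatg
Mmp14: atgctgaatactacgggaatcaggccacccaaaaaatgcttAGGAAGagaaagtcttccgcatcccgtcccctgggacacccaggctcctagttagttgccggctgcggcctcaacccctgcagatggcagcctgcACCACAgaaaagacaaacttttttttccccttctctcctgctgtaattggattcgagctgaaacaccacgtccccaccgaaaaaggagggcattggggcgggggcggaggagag
Mmp8: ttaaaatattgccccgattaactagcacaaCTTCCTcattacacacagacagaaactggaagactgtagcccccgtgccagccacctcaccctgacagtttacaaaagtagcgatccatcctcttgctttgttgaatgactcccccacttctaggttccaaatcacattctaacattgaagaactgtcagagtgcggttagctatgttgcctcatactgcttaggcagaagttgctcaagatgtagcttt
Mmp12, first start: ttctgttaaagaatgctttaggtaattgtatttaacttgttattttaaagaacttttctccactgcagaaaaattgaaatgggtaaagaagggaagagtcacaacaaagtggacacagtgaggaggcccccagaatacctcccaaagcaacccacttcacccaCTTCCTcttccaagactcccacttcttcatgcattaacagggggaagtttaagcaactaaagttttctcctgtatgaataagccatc
Mmp12, second start: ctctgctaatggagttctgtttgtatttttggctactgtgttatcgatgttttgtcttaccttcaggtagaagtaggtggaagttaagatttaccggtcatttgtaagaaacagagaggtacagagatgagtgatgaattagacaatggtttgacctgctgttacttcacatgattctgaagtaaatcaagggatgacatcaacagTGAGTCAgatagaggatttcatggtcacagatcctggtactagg

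The Mmp13 stretch held TGACTCA with its first base 35 before the start (chromosome 9, 7272479 to 7272485), AGGAAG 62 and 109 before it, and TGTGGT on the other strand 118 before it. The second Mmp12 stretch held TGAGTCA 44 before the start. No TGANTCA was found before the first start of Mmp12 or in the stretches of Mmp8, Mmp14, Timp1 or Timp2. Windows were in hand for 6 of the 8 members, without Mmp9 and Mmp19. Of 32851 RefSeq stretches of the same length, 6.75% held TGANTCA, 29.5% AGGAAG and 14% TGTGGT. A loose NF-kB motif, GGG and CC with any bases between, was in 45.8% of all stretches and not in that of Mmp13. A match describes the letters and no binding was measured.

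Mmp8, the collagenase best known from neutrophil granules, fell with LPS in each genotype. Its level went from 26.8 RPKM to 5.47 and 7.50 in WT, from 32.1 to 6.33 and 7.99 in BAFF KO, and from 15.9 to 4.41 and 4.29 in APRIL KO. No LPS library reached the lowest unstimulated library. The log2 changes were -1.91 (SE 0.21, adjusted p = 0.00024) in WT, -2.03 (SE 0.21, adjusted p = 0.00016) in BAFF KO and -1.66 (SE 0.21, adjusted p = 0.00044) in APRIL KO. Mmp8 lies on chromosome 9, 7558456 to 7568485, on the plus strand, and had 59 to 456 reads per library.

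Mmp9, the gelatinase that cleaves denatured collagen and type IV collagen and is also stored in neutrophil granules, fell in each genotype too. WT went from 16.3 RPKM to 8.45 and 4.37, BAFF KO from 26.5 to 2.61 and 2.79, and APRIL KO from 14.8 to 1.92 and 3.13. The 2 WT libraries with LPS stayed above all 4 knockout libraries with LPS. The log2 changes were -1.28 (SE 0.34, adjusted p = 0.013) in WT, -2.89 (SE 0.34, adjusted p = 0.00031) in BAFF KO and -2.19 (SE 0.34, adjusted p = 0.0012) in APRIL KO, and the WT change was not called with median ratio scaling (-0.78, adjusted p = 0.10). In BAFF KO the fall of Mmp9 had rank 7 among all tested genes. The gene lies on chromosome 2, 164940780 to 164955850, on the plus strand, and had 38 to 561 reads per library.

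Neutrophil markers also fell with LPS. Of the 12 tested, 11 fell on average and none rose, among them Retnlg, Ltf and S100a9. Of all tested genes 62.1% fell and 18.1% rose. The median change was -0.90 for the 12 markers and -0.44 for all tested genes. With median ratio scaling 8 of these markers fell and 2 rose. The median of all genes was -0.01 under that scaling, so the shares above are no baseline for these 2 counts. Their summed level (13 of 14 in the table) was 3145 RPKM in unstimulated and 1391 to 1752 in LPS-treated WT, 5903 and 2378 to 2757 in BAFF KO, and 2813 and 1649 to 1691 in APRIL KO. Cxcr2 had 0 reads in libraries 15, 18 and 20, and every other neutrophil marker was read in all libraries. The part of these cells in the levels of Mmp8 and Mmp9 was not tested. In bulk RNA, fewer cells of a type and less RNA per cell cannot be told apart.

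Mmp12, the macrophage elastase, was the most abundant member without LPS and showed no called change. It was at 181 RPKM in unstimulated WT and at 188 and 191 with LPS. BAFF KO went from 186 to 162 and 159, and APRIL KO from 124 to 114 and 165. On this scale the WT libraries with LPS lay above and the BAFF KO libraries below their unstimulated library, and the APRIL KO libraries lay on either side of theirs. That order depends on the scaling: the changes in WT and BAFF KO were 0.62 and 0.24 with median ratio scaling, and -0.23 and -0.36 with quantile normalization. The averaged log2 change was 0.00 with a 95% interval from -0.25 to 0.25 (adjusted p = 1). This interval is on the scale of total reads: with median ratio scaling the change was 0.51 (adjusted p = 0.0034). Mmp12 lies on chromosome 9, 7344381 to 7369499, on the plus strand, with 4134 to 7046 reads per library, and the end of Mmp1b, a gene on the other strand, overlaps 1 of its exons.

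Mmp14, a collagenase held in the plasma membrane, rose in all 3 genotypes. WT went from 21.1 RPKM to 129 and 133, BAFF KO from 27.7 to 141 and 138, and APRIL KO from 27.5 to 133 and 141. The 6 LPS libraries lay within 129 to 141 RPKM, and all stood above the unstimulated ones. Both BAFF KO libraries lay above both WT libraries, and the APRIL KO libraries overlapped with those of both. The log2 changes were 2.57 (SE 0.10, adjusted p = 7.6e-07) in WT, 2.29 (SE 0.10, adjusted p = 1.4e-06) in BAFF KO and 2.27 (SE 0.10, adjusted p = 1.5e-06) in APRIL KO. The response in BAFF KO differed from that in WT by -0.28 (95% interval -0.60 to 0.03) and the response in APRIL KO by -0.30 (-0.62 to 0.02), neither of them called. The gene lies on chromosome 14, 54431612 to 54445364, on the plus strand.

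Mmp19, a secreted enzyme with basement membrane proteins among its substrates, fell in each genotype. Its level went from 35.6 RPKM to 14.9 and 9.42 in WT, from 27.6 to 10.5 and 14.1 in BAFF KO, and from 37.1 to 12.3 and 13.4 in APRIL KO. The LPS libraries of the 3 genotypes overlapped and all lay below the unstimulated ones. The log2 changes were -1.51 (SE 0.26, adjusted p = 0.0019) in WT, -1.12 (SE 0.26, adjusted p = 0.0074) in BAFF KO and -1.46 (SE 0.26, adjusted p = 0.0021) in APRIL KO, and the one in BAFF KO was not called with median ratio scaling (-0.69, adjusted p = 0.058). Mmp19 lies on chromosome 10, 128790910 to 128800824, on the plus strand. The antisense gene Gm47093 spans its exons on the other strand. The protocol names a directional kit and, for library construction, TruSeq RNA. Whether reads kept strand is therefore unclear, and reads of the pair cannot be told apart.

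Timp1, an inhibitor that inflammatory signals induce in many cells, varied more between libraries of 1 group than any other member. It was at 51.4 RPKM in unstimulated WT, 10.9 in BAFF KO and 3.18 in APRIL KO. With LPS the WT libraries 14 and 15 were at 138 and 79.5 RPKM, the BAFF KO libraries 17 and 18 at 18.7 and 22.0, and the APRIL KO libraries 20 and 21 at 25.0 and 112. Every LPS library was above the unstimulated library of its genotype, and the BAFF KO libraries with LPS lay below unstimulated WT. Timp1 rose by a log2 change of 3.70 (SE 0.72, adjusted p = 0.0032) in APRIL KO. The changes of 1.02 (SE 0.72, adjusted p = 0.25) in WT and 0.84 (SE 0.72, adjusted p = 0.34) in BAFF KO were not called. The SE pools the spread of all genotypes. Leaving out APRIL KO library 20 or library 21 did not alter these changes and lowered their SE to 0.30. The averaged change was 1.85 (adjusted p = 0.0037). Library 19, with 12 reads of Timp1, is the one unstimulated APRIL KO library, and without it the average covers WT and BAFF KO alone, at 0.93 (adjusted p = 0.13).

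Stromal markers also varied between libraries. None of the 7 tested was called with LPS by limma, on average or in a genotype, while 80.2% of all tested genes were called on average. None had an unadjusted p below 0.05 there, while 8092 of all 9934 genes had on average. The median change of the 7 was 0.84 on average, 0.09 in WT, 0.58 in BAFF KO and 1.93 in APRIL KO. A change was thus not shown for these markers, and none is excluded. Their sum (8 of 9 in the table) was 152 RPKM in unstimulated and 69.8 to 264 in LPS-treated WT, 18.8 and 13.8 to 66.4 in BAFF KO, and 12.2 and 19.2 to 503 in APRIL KO. Libraries 14 and 21, the 2 highest in this sum, were also the 2 highest in Timp1, and library 19 was lowest in both. In libraries 15 and 17 the stromal sum was below that of the unstimulated library of the genotype, while Timp1 was above it. Pdgfra had 0 reads in libraries 15, 16, 19 and 20, while the collagen genes Col1a1, Col1a2 and Col3a1 were read in all. Mmp13 was at 475 RPKM in library 20 and at 490 in library 21, where the stromal sum was 19.2 and 503. The part of stromal cells in the Timp1 levels was not tested. Libraries 14 and 21 were also left out together, a choice made after the data were seen that removes the 2 highest values of Timp1. The LPS changes of Timp1 were then 0.62 in WT, 0.84 in BAFF KO and 2.64 in APRIL KO. In that fit BAFF KO alone holds 2 LPS libraries, with 1 residual degree of freedom. The spread of Timp1 in WT and APRIL KO is thus not measured, and no p is given for these changes. Timp1 lies on chromosome X, 20870166 to 20874735, on the plus strand, inside the span of Syn1, a gene on the other strand that reached at most 1.17 RPKM in a library.

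**Figure D2:**
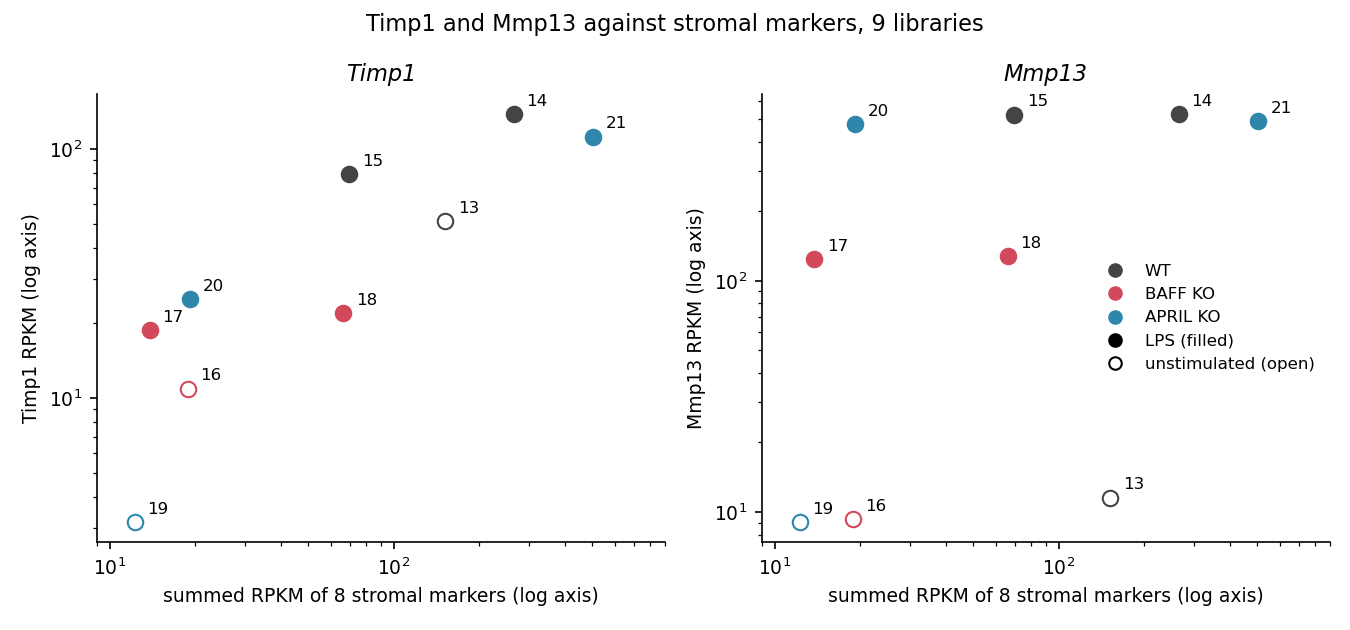
The left panel plots Timp1 and the right panel Mmp13, in RPKM, against the summed RPKM of 8 stromal markers, on log axes. Each point is 1 of the 9 libraries, named by its number, filled with LPS and open without. Libraries 14 and 21 lie highest in Timp1, while Mmp13 is alike in libraries 20 and 21, whose stromal sums are 19.2 and 503.

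Timp2, the inhibitor that also works with MMP14, was lower with LPS by a modest amount. WT went from 41.7 RPKM to 26.4 and 31.7, BAFF KO from 37.4 to 24.4 and 26.9, and APRIL KO from 41.4 to 21.5 and 31.2. The averaged change was -0.57 (SE 0.12, adjusted p = 0.0031), and within genotypes the change was called in APRIL KO only (-0.66, adjusted p = 0.028), with -0.51 (adjusted p = 0.066) in WT and -0.53 (adjusted p = 0.062) in BAFF KO. These 3 values were not shown to differ. Relative to the median of all genes, the averaged change of Timp2 was small: with median ratio scaling it was -0.07 (adjusted p = 0.65). The gene lies on chromosome 11, 118301069 to 118355740, on the minus strand.

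**Figure D3:**
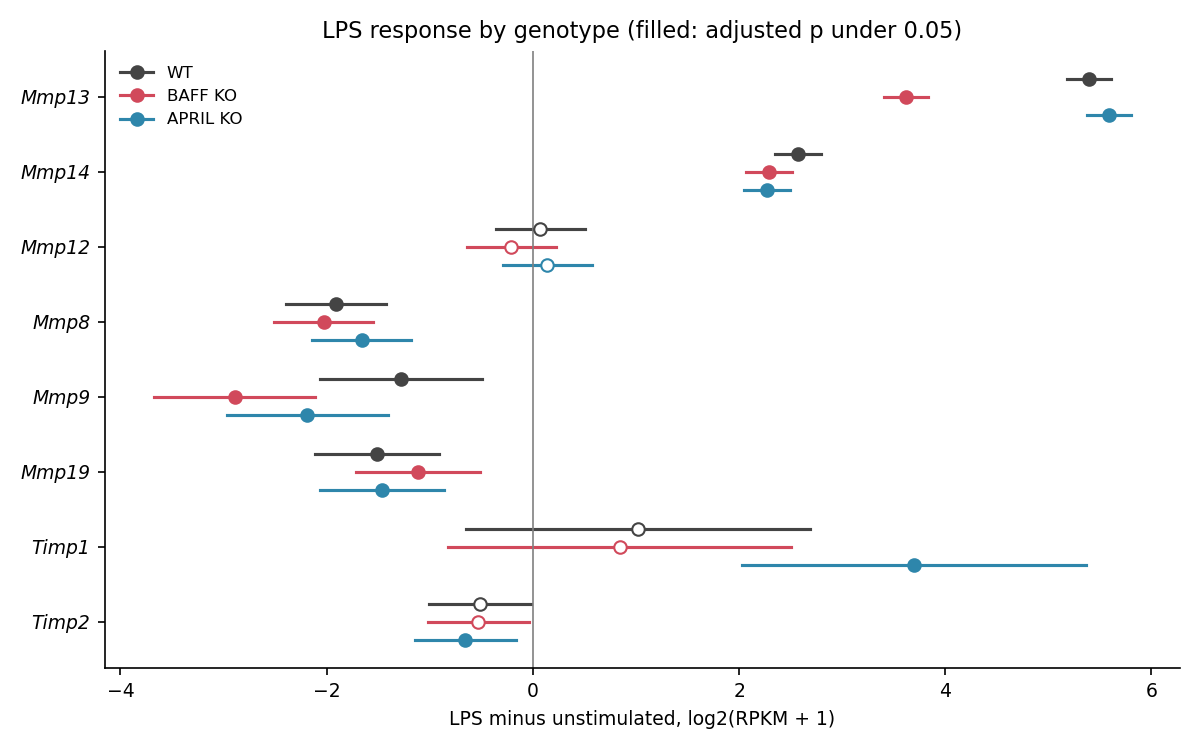
The horizontal axis gives the LPS response, LPS minus unstimulated on the log2(RPKM + 1) scale, for each gene and genotype. Points are limma estimates with 95% intervals, and filled points passed an adjusted p of 0.05. Mmp13 stands at 5.39 in WT and 5.59 in APRIL KO against 3.62 in BAFF KO, while the intervals of Mmp14 lie close together.

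By genotype, 5 members were called in WT, 2 higher and 3 lower, where 60.3% of all tested genes were called, 13.7% higher and 46.7% lower. In BAFF KO there were 5, again 2 higher and 3 lower, against 59.8% of all tested genes, 16% higher and 43.8% lower. In APRIL KO there were 7, 3 higher and 4 lower, against 62.1% of all tested genes, 14.4% higher and 47.8% lower. Mmp8, Mmp9, Mmp13, Mmp14 and Mmp19 were called in each of the 3 genotypes with one direction each. Timp1 and Timp2 were called in APRIL KO alone, and a difference from WT was not called for either (interaction adjusted p = 0.998 for both).

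The make-up of the metalloproteinase transcripts changed with these shifts. Over 12 metalloproteinase genes in the table, the summed level went from 305 RPKM in unstimulated WT to 907 and 882 with LPS, from 317 to 460 and 468 in BAFF KO, and from 241 to 759 and 836 in APRIL KO. Without LPS, Mmp12 made up 59.3% of the sum in WT, 58.7% in BAFF KO and 51.7% in APRIL KO, and Mmp13 3.79%, 2.95% and 3.77%. With LPS, Mmp13 made up 58.1% and 59.2% in WT and 62.6% and 58.6% in APRIL KO, but 26.9% and 27.4% in BAFF KO. There Mmp12 remained the largest at 35.2% and 34.0%, followed by Mmp14 at 30.6% and 29.4%. The order of levels in LPS-treated WT and APRIL KO was Mmp13, then Mmp12, then Mmp14, although in APRIL KO the Mmp12 library at 114 RPKM lay below both Mmp14 libraries. In LPS-treated BAFF KO the order was Mmp12, Mmp14, Mmp13, with no overlap between libraries of neighbouring genes. These levels are per gene length, so the order of genes and their shares depend on the lengths used. The values imply 4174 bases for Mmp14, against 5960 over all its annotated exons, and 2665 against 2673 for Mmp13. The longer length would lower the level and share of Mmp14, and its place above Mmp13 in BAFF KO was not tested with it. The levels say nothing of protein.

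The genes of several members sit together. The annotation lists 10 metalloproteinase genes within 427.1 kb of chromosome 9, and 6 of them were in the table: Mmp13, Mmp12, Mmp3, Mmp10, Mmp8 and Mmp27. Their responses to LPS differed along the cluster. Mmp13 rose, Mmp12, 71.9 kb away, had no called change, and Mmp8, 285.9 kb away, fell. Mmp10, which encodes stromelysin-2 and lies 229.8 kb from Mmp13, rose by an averaged 1.19 (SE 0.34, adjusted p = 0.012). Its levels were low, with 0 reads in unstimulated BAFF KO and 74 at most in a library. Within genotypes limma did not call it (adjusted p = 0.21 in WT, 0.13 in BAFF KO and 0.052 in APRIL KO). In WT it went from 1.91 RPKM to 8.22 in library 14 and 2.24 in library 15. Mmp3 (averaged -0.15, SE 0.53) and Mmp27 (averaged -0.23, SE 0.11) were not called.

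**Figure D4:**
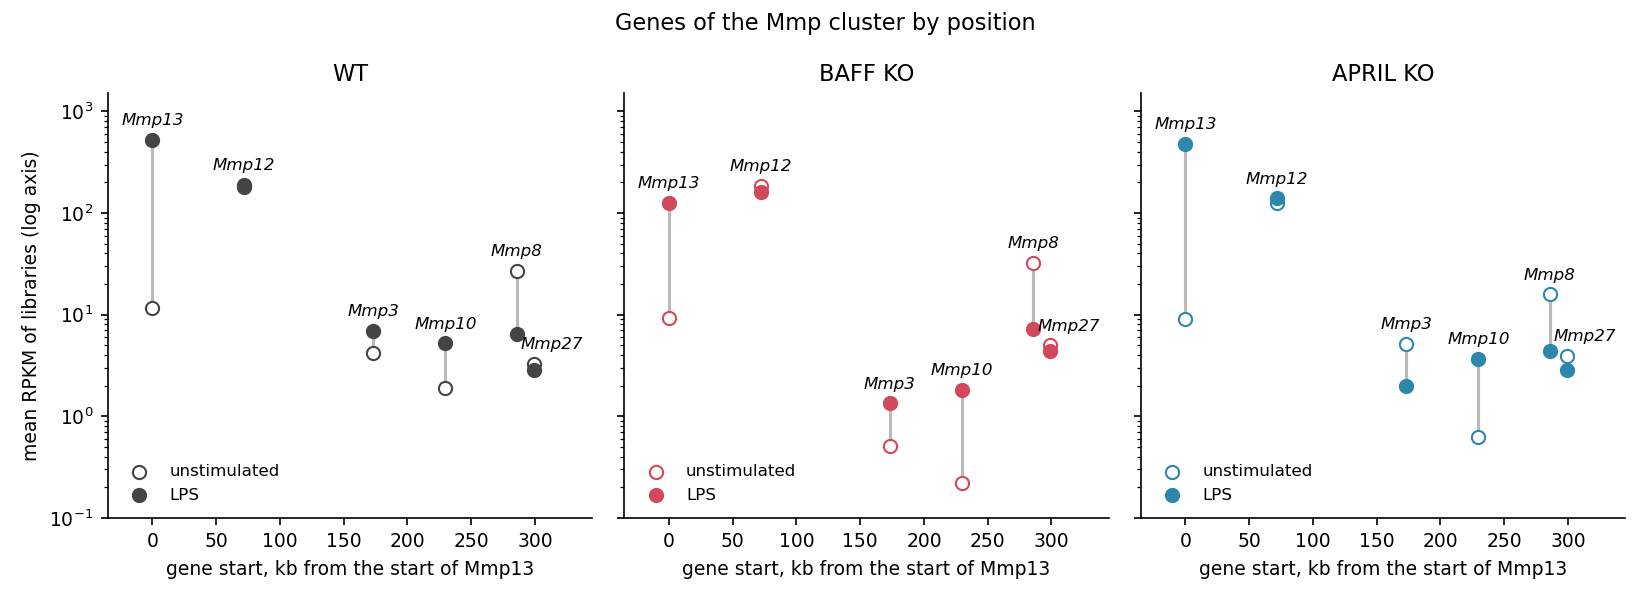
Each panel plots 1 genotype: the mean RPKM of its libraries on a log axis against the distance of the gene's start from that of Mmp13, in kb. Open points are unstimulated (1 library), filled points LPS (2 libraries), joined by a line. Mmp13 at one end is higher and Mmp8, 285.9 kb away, lower with LPS in all 3 panels, while Mmp12 at 71.9 kb changes little.

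The knockouts were then compared with WT under LPS. This compares levels, so any difference already present without LPS is part of it. In BAFF KO, 1 member was called, against 8.34% of all tested genes (3.99% higher and 4.35% lower): Mmp13, at 126 ± 3.08 RPKM (SD, n = 2) against 525 ± 3.16 in WT (SD, n = 2). This was a 4.17-fold lower mean and a log2 difference of -2.05 (SE 0.07, adjusted p = 2.4e-05). Both BAFF KO libraries lay below both WT libraries, and the difference was called in 15 of 15 alternative settings, with values from -2.08 to -1.96. Summed skeletal muscle markers were also lower in BAFF KO than in WT (9 of 10 tested were lower), and among them Ckm had 0 reads in each BAFF KO library. In APRIL KO the muscle markers were lower than in WT by a median of -2.46, against -2.19 in BAFF KO. By limma 4 of 10 were called in APRIL KO, against 0.211% of all tested genes. There 10 of 10 had an unadjusted p below 0.05, as had 1539 of all 9934 genes. Mmp13 was at 483 ± 10.5 RPKM in LPS-treated APRIL KO (SD, n = 2). Neutrophil markers were higher in BAFF KO than in WT for 7 of 12 tested, among them Mpo and Elane, while Mmp8 differed by 0.13 (95% interval -0.26 to 0.52). Of the 8 macrophage markers 2 were lower in BAFF KO than in WT, Fcgr1 by -0.91 (adjusted p = 0.0014) and Cd14 by -0.90 (adjusted p = 0.0087), and both genes rose with LPS on average. The part of these shifts in the Mmp13 difference was not tested.

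Among the other members in BAFF KO against WT, Timp1 missed the threshold with a difference of -2.31 (SE 0.59, adjusted p = 0.052), and Mmp9 with -0.94 (SE 0.28, adjusted p = 0.079, called in 2 of 15 alternatives). Both BAFF KO libraries lay below both WT libraries for either gene. The Timp1 difference was called in 6 of 15 alternatives, among them the fits without library 20 or without library 21. Those are APRIL KO libraries, so in these fits the difference stayed at -2.31 and only its SE fell, to 0.24. Without libraries 14 and 21, the 2 highest in Timp1, the difference was -1.92. For Mmp14 the difference was 0.09 with a 95% interval of -0.09 to 0.27, for Mmp19 0.04 (-0.45 to 0.53), for Timp2 -0.17 (-0.57 to 0.23) and for Mmp12 -0.24 (-0.59 to 0.11).

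No member was called in APRIL KO against WT, where 0.211% of all tested genes were called by limma, 0.0101% higher and 0.201% lower. Mmp8 (-0.47), Mmp9 (-1.04) and Mmp12 (-0.46) had unadjusted p of 0.025, 0.0060 and 0.017, which came to adjusted p of 0.27, 0.20 and 0.24. These 3 were called when the 18 columns were entered as separate samples. Both APRIL KO libraries lay below both WT libraries for all 3 genes. For Mmp13 the difference was -0.12 with a 95% interval of -0.29 to 0.05, and for Timp1 it was -0.97 with an interval of -2.33 to 0.40. Without library 20 the Timp1 difference was 0.10 and without library 21 -2.03 (adjusted p = 0.081), so it rests on which of the 2 is used. The comparisons of both knockouts share the 2 WT libraries, so the Mmp9 values below WT in both are not independent.

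**Figure D5:**
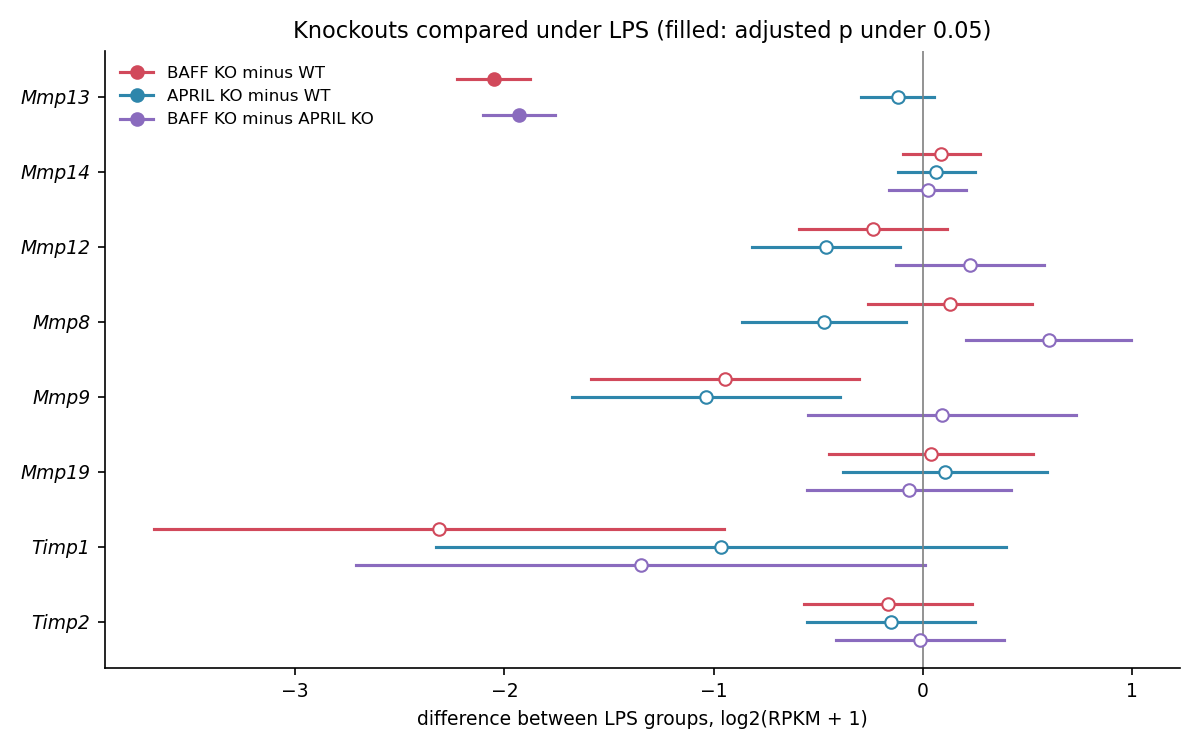
The horizontal axis gives the difference between LPS groups on the log2(RPKM + 1) scale, as limma estimates with 95% intervals. Filled points passed an adjusted p of 0.05. The differences of Mmp13 in BAFF KO, -2.05 from WT and -1.93 from APRIL KO, are the filled ones, and the widest intervals are those of Timp1.

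The 2 knockouts were also set against each other. Mmp13 was lower in BAFF KO than in APRIL KO by 1.93 on the log2 scale (difference -1.93, SE 0.07, adjusted p = 2.3e-05), the one member called where 5.54% of all tested genes were, 2.48% higher and 3.06% lower. Mmp8 differed by 0.60 (SE 0.17, adjusted p = 0.090), with 6.33 and 7.99 RPKM in BAFF KO against 4.41 and 4.29 in APRIL KO. Timp1 differed by -1.35 (adjusted p = 0.26), which was -2.41 (adjusted p = 0.017) without library 20 and -0.29 without library 21.

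Whether the LPS response itself differed was tested as the knockout's response minus that of WT. For BAFF KO the difference was called for Mmp13 alone (-1.77, SE 0.13, adjusted p = 0.0052), where 0.443% of all tested genes were called, 0.221% higher and 0.221% lower. It was called in 12 of 15 alternatives. Without library 17 it was -1.75 (adjusted p = 0.068) and without libraries 14 and 21 it was -1.77 (adjusted p = 0.062), sizes close to the main one, and with the lower index columns alone the difference was -1.34 (adjusted p = 0.054). Each of these fits rests on 1 unstimulated library per genotype, and the 2 columns of library 16 held 7.42 and 11.2 RPKM of Mmp13. Mmp9 came next among the members with -1.62 (SE 0.48, adjusted p = 0.13). For Timp1 the difference of responses was -0.18 (SE 1.02, adjusted p = 0.94 by limma). For APRIL KO limma called none of the 9934 genes (0%), and 337 had an unadjusted p below 0.05. Among the members this was so for Timp1 alone (2.68, SE 1.02, adjusted p = 0.998 by limma).

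Without LPS, each genotype had 1 library and no test was made. Timp1 was the one member beyond 2-fold of WT: 4.72-fold lower in BAFF KO and 16.2-fold lower in APRIL KO, with 250 reads in WT, 60 in BAFF KO and 12 in APRIL KO. The stromal sums of these 3 libraries were 152, 18.8 and 12.2 RPKM. Mmp9 was 1.63-fold higher in BAFF KO and Mmp8 1.69-fold lower in APRIL KO, in each case with both columns beyond both WT columns. Mmp14 was 1.31-fold higher in BAFF KO and 1.30-fold higher in APRIL KO, and Mmp12 was 1.45-fold lower in APRIL KO. Mmp13, Mmp19 and Timp2 lay within 1.29-fold of WT in both knockouts.

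Other genes of the family and of the pathway were described by lists. Of all tested genes, 18.1% rose and 62.1% fell with LPS on average. In BAFF KO against WT under LPS 3.99% were higher and 4.35% lower. In BAFF KO against APRIL KO 2.48% were higher and 3.06% lower. List counts with median ratio scaling are given without such a share. That scaling moved the median LPS change of all genes from -0.44 to -0.01. The shares of 18.1% and 62.1% are thus no baseline for those counts. Of 20 further metalloproteinase and TIMP genes listed, 7 were in the table and 6 were tested. On average 2 of them rose with LPS and none fell: Mmp25, a membrane-anchored enzyme, by 2.06 (SE 0.12, adjusted p = 2.6e-06), and Mmp10. Mmp25 went from 0.547 RPKM to 6.49 in WT, from 0.872 to 6.97 in BAFF KO and from 1.31 to 7.26 in APRIL KO (means of libraries). None of the 6 was called by limma between a knockout and WT under LPS. In BAFF KO 1 of them had an unadjusted p below 0.05, as had 2508 of all 9934 genes. In APRIL KO 0 of them had, against 1539 of all genes. Mmp2, Mmp3 and Timp3 spread widely between libraries, and Mmp2 and Timp3 were highest in library 21, which was also highest in stromal markers.

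Of 16 tested genes for activation, docking and clearance of metalloproteinases, 8 rose and 6 fell with LPS on average. Among all tested genes 18.1% rose and 62.1% fell. The median of the list was 0.47 against -0.44 for all genes. With median ratio scaling 10 rose and 3 fell. Plaur, the receptor that holds urokinase at the cell surface, rose by 1.94. Lrp1, a scavenger receptor that takes up metalloproteinases, fell by 2.13, and Tspan14, a tetraspanin that escorts ADAM10, fell by 2.48. In BAFF KO against WT under LPS 2 of the 16 were lower and none higher, against 4.35% and 3.99% of all genes. Plaur was at 110 RPKM against 342 in WT and 318 in APRIL KO (means; difference from WT -1.62, SE 0.08, adjusted p = 0.00011), and Serpinb2, an inhibitor of plasminogen activators, was lower by -2.17 (SE 0.41, adjusted p = 0.020). Plaur was also lower than in APRIL KO (-1.52, adjusted p = 0.00017), as was Cd44, a hyaluronan receptor that docks Mmp9 (-0.47, adjusted p = 0.033, and 0.054 with quantile normalization).

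Of 8 tested ADAM and ADAMTS genes and their iRhom partners, 3 rose and 5 fell with LPS on average. Among all tested genes 18.1% rose and 62.1% fell. With median ratio scaling 4 of the 8 rose and 4 fell. Adamts4, an aggrecanase, rose by 2.06 and Rhbdf2, the iRhom that matures ADAM17, by 1.94, while Adam8 fell by 1.40 and Adam10 by 1.34. In BAFF KO against WT under LPS, Adam10 (0.53, adjusted p = 0.023) and Adam17, the sheddase of tumour necrosis factor (0.34, adjusted p = 0.035), were higher. Of 16 cathepsins and cystatins, 2 rose and 13 fell on average, with a median of -0.45 against -0.44 for all genes. With median ratio scaling 3 rose and 2 fell. Ctsc, which activates granule serine proteases, rose by 2.44 and Cst7 by 2.42. Ctsh was higher in BAFF KO than in WT by 0.38 (adjusted p = 0.049), which was not called with median ratio scaling (adjusted p = 0.073).

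Of 13 tested transcription factors with sites at metalloproteinase genes, 8 rose and 2 fell on average, against 18.1% and 62.1% of all tested genes. With median ratio scaling 9 of the 13 rose and 1 fell. Batf rose by 3.16, Nfkb1 by 2.50 and Rel by 2.20, and Fos fell by 2.63. Of all tested genes, 4.35% were lower and 3.99% higher in BAFF KO than in WT under LPS. Of the 13 factors, 3 were lower and 1 higher there. The lower ones were Fos (-1.07, adjusted p = 0.017), Batf (-0.85, adjusted p = 0.0057) and Fosl2 (-0.69, adjusted p = 0.043). The same 3 were lower than in APRIL KO, by -0.87 for Fos, -0.69 for Batf and -0.76 for Fosl2 (adjusted p 0.042, 0.015 and 0.038). Fos was at 4.88 RPKM in LPS-treated BAFF KO against 11.1 in WT, Batf at 21.3 against 39.1 and Fosl2 at 0.895 against 2.06. Rela was the higher one, by 0.41 (adjusted p = 0.046, and 0.051 with median ratio scaling). No factor was called by limma in APRIL KO against WT, where 0.211% of all tested genes were. An unadjusted p below 0.05 was found for 1 of 13, and for 1539 of all 9934 genes.

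Of 15 tested matrix substrates, 7 rose with LPS on average with median ratio scaling. In the reported fit 5 rose and none fell, against 18.1% and 62.1% of all tested genes. They included Tnc (1.90, adjusted p = 0.0020) and Vcan (1.79, adjusted p = 7.3e-06), which encode tenascin-C and versican. Spp1, the gene of osteopontin, was the one higher in BAFF KO than in WT under LPS (0.93, adjusted p = 0.030), at 1889 against 1006 RPKM. Col1a1, Col1a2, Col3a1 and Sparc belong to this list and to the stromal markers.

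The genes whose levels over the 9 libraries were most like those of a member were found by the root-mean-square difference of log2(RPKM + 1) after each gene's mean was removed, among 9860 named genes. For Mmp13 they were Edn1 (0.28), Cxcl3 (0.29) and Cxcl2 (0.35), where Mmp13 itself varied by 2.42 around its mean. Edn1, the gene of endothelin-1, was at 54.5 RPKM in LPS-treated WT, 18.5 in BAFF KO and 62.5 in APRIL KO, and the neutrophil-attracting chemokine gene Cxcl3 at 90.4, 28.9 and 81.7. For Timp1 they were Tnc (0.50), Col5a3 (0.57) and Serpinb2 (0.65), against a variation of 1.55. For Mmp14 the nearest were Apobec3 (0.09) and Ccdc25 (0.10), and for Mmp9 Pole2 (0.30), a DNA polymerase subunit gene. Mmp8 was nearest to Aph1c (0.17), Mmp12 to 2410004B18Rik (0.10), Mmp19 to Ccny (0.08) and Timp2 to Mtfr1 (0.07). Most of these patterns share the step from unstimulated to LPS libraries, and no test was made.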

How the data were processed

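Members and gene lists were chosen with earlier results of these data known, so the lists are descriptions and not independent support. The mirVana kit was used for RNA and a NextSeq 550 for single 85 bp reads, per the labels' protocols, and STAR and mm10 stand in the submitters' processing notes. No source used here names the counter, its annotation, a filter or a strand setting. The authors deposited one table of RPKM values with 18 columns, 2 for each of 9 libraries. All values were whole reads with 1 read added, within 0.01 reads, and the read numbers printed have that read taken off. Gene IDs were named through GENCODE M21, which matched 11084 of 11164. The 2 columns of a library were averaged. A gene was kept if 1 or more of the 6 group means reached 1 RPKM, and log2(RPKM + 1) was fitted with limma 3.58.1 in R 4.3.3 (6 group means, 3 residual degrees of freedom, trend, 2-sided), with Benjamini-Hochberg adjustment over 9934 genes for each of 9 comparisons and a threshold of 0.05. Unstimulated groups have 1 library, which is assumed to vary like the LPS groups. No count model was used because the unit is RPKM. The code was tested on simulated data. Named genes were the 8 members, up to 3 called rises and 3 called falls per list and comparison (otherwise the smallest p), and the 3 genes most like each member. One gene that this rule names is not reported here. Values named outside that rule, such as those of Mmp2, Mmp3 and Timp3, were chosen after they were seen. Alternatives were a pseudocount of 0.1, no filter, 2 other scalings, single or separate columns, a replicate block, leaving out each library and, added after seeing the data, leaving out libraries 14 and 21.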

Additional observations from a re-analysis of the deposited data

Results flagged for a closer look

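The LPS response of Mmp13 was smaller in BAFF KO than in WT by 1.77 on the log2 scale (-1.77, limma interaction, adjusted p = 0.0052), and this difference between genotypes is what singles it out. The unstimulated side of it rests on 1 library in each genotype, with 159 reads of Mmp13 in WT and 152 in BAFF KO.

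Mmp12 lay on opposite sides of the unstimulated level with LPS in 2 genotypes, with neither change called (adjusted p 0.76 and 0.36). Both LPS libraries of WT lay above the unstimulated library, with a mean log2 change of 0.070, and both of BAFF KO lay below theirs, with -0.21. The test of the difference itself gave -0.28 (limma interaction, adjusted p = 0.58), so a difference was not shown. With median ratio scaling the changes were 0.62 and 0.24, both higher, and with quantile normalization -0.23 and -0.36, both lower. In APRIL KO one library lay below the unstimulated library and the other above it.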

How the results depend on the processing

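Of 1104 values recomputed under alternatives, 1059 stayed on the same side of the threshold without a called change of direction, 10 were no longer called, and 34 became called. The remaining one was the averaged LPS change of Mmp12, 0.00 in the reported fit and 0.51 (adjusted p = 0.0034) with median ratio scaling, which moved the median of all genes from -0.44 to -0.01. The count of members called in BAFF KO against WT was 2 with a pseudocount of 0.1, 2 with median ratio scaling, 3 with the 18 columns as separate samples, 2 without libraries 14 and 21 and 1 to 2 with each library left out. In APRIL KO against WT it was 3 with separate columns. In BAFF KO against APRIL KO it was 3 with separate columns and 1 to 2 with each library left out. For the difference of the BAFF KO and WT responses it was 3 with separate columns, 0 with the lower index columns alone, 0 without libraries 14 and 21 (limma in each fit) and 0 to 1 with each library left out. Separate columns treat the 2 columns that share a library number as samples. The fit without libraries 14 and 21 has 1 residual degree of freedom, and these 2 libraries were the highest in Timp1. Timp2 in APRIL KO was not called with median ratio scaling (-0.13), with the lower index columns (-0.53, adjusted p = 0.12) or without library 20 (-0.40, adjusted p = 0.090). The cause of these changes was not tested. The replicate block changed no call except the fall of Timp2, which became called in WT (-0.67, adjusted p = 0.011) and BAFF KO (-0.68, adjusted p = 0.010). Same-numbered LPS libraries did not deviate together (correlations 0.12, -0.10 and -0.18), so the numbers were not taken to pair them. With 2 LPS libraries against 1 unstimulated library, and as few as 12 reads of Timp1, precision differs between members (SE of the averaged change 0.05 for Mmp13 and 0.41 for Timp1), and knockouts without LPS were not tested.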
